A study of Mus musculus with 2 samples.

Results

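Nuclear-encoded genes of the respiratory chain were examined for Myb binding near their transcript starts in mouse bone marrow progenitors. The genes were taken by symbol from the GENCODE vM21 annotation. They were the protein-coding genes on nuclear chromosomes whose symbols begin with Nduf, Uqcr, Cox4 to Cox8 or Atp5, together with Sdha, Sdhb, Sdhc and Sdhd. The rule gave 94 of 21938 nuclear protein-coding genes, and no binding value entered it. The 94 genes carry 93 symbols, because Atp5o stands for 2 gene identifiers, and the second of these is a long locus that runs through to the usual Atp5o gene.

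The study mapped Myb, a DNA-binding transcription factor of hematopoietic stem and progenitor cells (HSPCs), by ChIP-seq in Lin- bone marrow cells of WT mice. Lin- cells are marrow cells left after magnetic depletion of cells that carry mature lineage markers, with a stated purity above 80%. Both libraries came from WT Lin- cells, and the labels name no treatment, age, sex or number of mice. In the study's methods, mice called WT were Ep300 fl/fl without Mx1-Cre, on a C57BL/6 background and of both sexes, and received poly(I:C) at 6 to 8 weeks of age; whether this holds for the mice of these libraries is not stated there. Chromatin was precipitated with an antibody to Myb in 1 library and with nonspecific rabbit IgG in the other, and the Myb peaks were called against the IgG library.

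There was 1 library of each kind, so no replicate check and no test between samples was possible, and every value below describes 1 Myb library. The deposited list held 25793 peaks. The number of reads under a summit, worked out from the peak columns, had a median of 18 and a lowest value of 7. The labelled cells were checked against marker genes. All 8 progenitor genes listed (Kit, Cd34, Flt3, Gata2, Runx1, Myb, Spi1 and Meis1) had at least 1 Myb peak in the gene or within 3 kb of it, and 0 of 7 genes of mature blood lineages, liver or muscle had one. Hbb-b1, also on the list of mature genes, was not annotated under that symbol and was left out. The share of all genes with a peak counted this way was not worked out, so these counts are a weak check of the cells. They were not adjusted for gene length, and Runx1 had 16 peaks and Meis1 had 12. Peaks show where the antibody enriched DNA, and no RNA was measured here.

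The respiratory chain sits in the inner mitochondrial membrane. Complexes I and II pass electrons from NADH and succinate to ubiquinone, complex III passes them on to cytochrome c, complex IV reduces oxygen, and complex V, the ATP synthase, uses the proton gradient that the chain builds to make ATP. Most subunits are encoded in the nucleus and a few in mitochondrial DNA, and the products of both genomes are assembled together. In many tissues their promoters are known for binding sites of NRF1, GABP (an ETS-family factor), YY1 and the estrogen-related receptors (ERR).

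Myb summits lay at most of these genes. A promoter peak was counted where the summit, the base with the most reads, fell within 3 kb of any annotated transcript start of the gene. By this count 66 of 94 respiratory chain genes (70.2%, 95% Clopper-Pearson interval 59.9 to 79.2) had a promoter peak, against a background of 39.9% for all nuclear protein-coding genes. These intervals cover counting error over genes only. The 66 genes had 88 promoter peaks between them, with 1 peak at 46 genes, 2 at 18 genes and 3 at 2 genes, and no peak was shared by 2 of the genes. The other 28 genes had none.

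The 30-base stretches below show the Myb motif where it lay within 50 bp of a summit at genes of different complexes. They are from GRCm38 (mm10), are written 5′ to 3′ on the strand that carries the motif, and have the motif in capitals. The motif searched on either strand was CAACTG or CAACGG, and the same words with T as their first base. The word CAACTG is also an E-box (CANNTG), which other factors bind.

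Cox7a2 (chr9:79762636-79762665, plus strand): aatgcaccaggcCAACGGaagaaaactctc
Uqcrq (chr11:53430909-53430938, minus strand): gcccactcaggtCAACTGacaatttttttt
Ndufs8 (chr19:3913091-3913120, plus strand): cactggtccttgTAACGGccgcgggtagca
Sdhc (chr1:171150504-171150533, plus strand): ttcaggttccccCAACGGtcgcgggcgtgg
Ndufaf1 (chr2:119662916-119662945, plus strand): atagttcaagagTAACGGaaagtatcctaa
Ndufb2 (chr6:39601733-39601762, plus strand): accgctactttgTAACTGtagttttgttac
Atp5k (chr5:108434378-108434407, plus strand): gcgccggaagctCAACTGaggcggaagaca

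These 7 sites were chosen to show the motif at peaks that run from strong to weak. The Cox7a2 site belongs to a 13-fold peak and the Atp5k site to a 3.26-fold peak. At Ndufb2 the motif began 1 bp from the summit, and at Ndufs8 it began 7 bp from it. At Atp5k the bases just before the Myb motif hold the ETS word CCGGAAG.

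Of the 88 promoter summits of respiratory chain genes, 18 (20.5%, interval 12.6 to 30.4) had a Myb motif within 50 bp. In windows of the same length 500 bp to either side, 10.8% (interval 6.63 to 16.3, 176 windows) had one. Over the 13250 promoter summits of all protein-coding genes the share was 14.4%, against 10.2% in their flanks. The interval of the respiratory chain genes holds the value of all genes, so no difference between them was detectable at this number of peaks. Most summits of both groups had no such motif within 50 bp.

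Of the words searched within 50 bp, AANATGGC, which YY1 binds, differed most from the other promoter summits. It lay within 50 bp of 10 of the 88 summits (11.4%, interval 5.59 to 19.9), against 2.01% of all promoter summits (interval 1.78 to 2.26) and 0.568% of the flanks of the respiratory chain summits. Within 25 bp the share was 2.27% (interval 0.276 to 7.97), which holds the 0.762% of all promoter summits. Within 100 bp it was 14.8% (interval 8.11 to 23.9) against 4.42%. The word was singled out after its values were known. The word contains the letters ATG, and at 3 of the 10 summits within 50 bp it overlapped the annotated start codon of the gene. Examples from 5 genes show its place, with the word in capitals.

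Sdhb (chr4:140961391-140961420, plus strand): cgtcaggagccAAAATGGCggcgacggtcg
Sdhc (chr1:171150563-171150592, minus strand): ggccggaactcAAGATGGCtgcgttcttgc
Ndufs8 (chr19:3913050-3913079, plus strand): tgaatactgcaAAGATGGCgacagcgtaca
Cox8a (chr19:7217551-7217580, plus strand): gtcagggagtcAAGATGGCcgaaccagccg
Atp5j (chr16:84835046-84835075, minus strand): aaagtgtaggaAAGATGGCggagtcttagc

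The same word is common in promoters of respiratory chain genes whether Myb summits lie there or not. In the RefSeq promoter table (GRCm38.p6, 250 bases before to 50 after a gene's start), in which 76 of the 93 symbols were found, it was present in 22.4% of their promoters (interval 13.6 to 33.4), against 6.78% of 16698 protein-coding promoters. It was in 21.4% of the 56 promoters of genes with a promoter peak and in 25.0% of the 20 of genes without one. The respiratory chain summits also lay closer to transcript starts than those of all protein-coding genes (values below), and the part of this distance in the summit shares was not tested.

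The other words for known regulators were also frequent in these promoters. GCGCANGC (NRF1) was in 32.9% against 13.9% of all promoters, CCGGAAG (ETS and GABP) in 22.4% against 12.2%, and CAAGGTCA (ERR) in 5.26% against 1.23%. GGGCGGG (SP and KLF factors, 36.8% against 35.1%), CCAAT (NFY, 44.7% against 39.1%) and the Myb motif (27.6% against 26.3%) were about as frequent as elsewhere. Promoters with and without a Myb peak did not separate by these words. NRF1 words were in 30.4% of the promoters with a peak and 40% of those without, and Myb motifs in 25.0% and 35.0%, with overlapping intervals in each case.

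**Figure D1:**
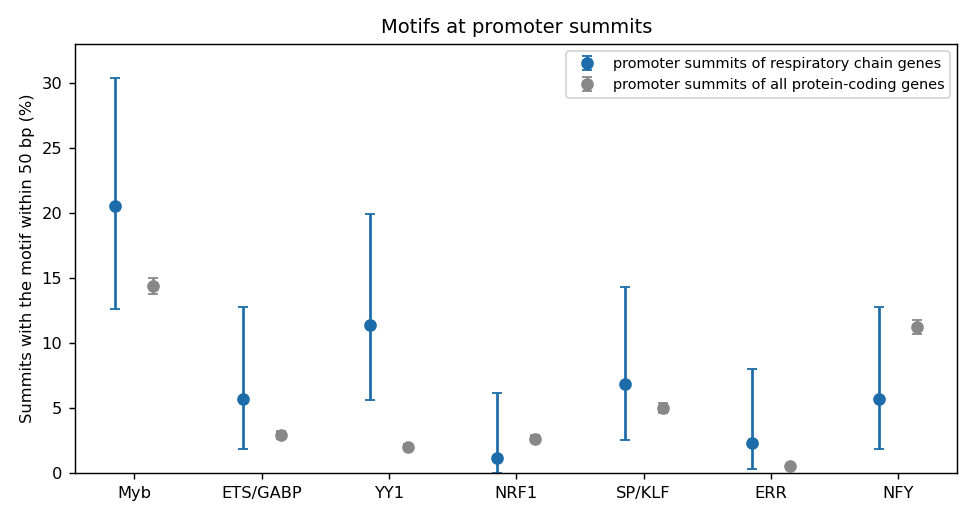
Share of promoter summits, in percent, that had each motif within 50 bp, for the 88 summits of respiratory chain genes (blue) and the 13250 of all protein-coding genes (gray); bars are 95% Clopper-Pearson intervals. The YY1 intervals do not overlap (11.4% against 2.01%), while the Myb share of 20.5% has an interval that reaches below the 14.4% of all genes.

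A pair of promoters with these words, both free of annotated exons, stands for the 2 outcomes. Ndufaf1, an assembly factor of complex I, had a summit 114 bp before its start (5.37-fold), and the 250 bases before its start hold a Myb motif, read here on the other strand as CCGTTA, and an ETS word. Ndufc2, a subunit of the membrane arm of complex I, had no promoter peak, and the 250 bases before its start hold a Myb motif and an NRF1 word. Both are from RefSeq (GRCm38.p6), on the strand of the gene, with these words in capitals.

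Ndufaf1 (chr2:119662835-119663084, minus strand): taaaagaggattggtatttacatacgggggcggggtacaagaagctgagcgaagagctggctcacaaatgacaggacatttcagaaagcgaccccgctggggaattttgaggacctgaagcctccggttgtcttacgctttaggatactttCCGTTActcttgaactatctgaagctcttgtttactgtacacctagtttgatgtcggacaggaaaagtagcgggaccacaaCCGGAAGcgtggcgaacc
Ndufc2 (chr7:97399753-97400002, plus strand): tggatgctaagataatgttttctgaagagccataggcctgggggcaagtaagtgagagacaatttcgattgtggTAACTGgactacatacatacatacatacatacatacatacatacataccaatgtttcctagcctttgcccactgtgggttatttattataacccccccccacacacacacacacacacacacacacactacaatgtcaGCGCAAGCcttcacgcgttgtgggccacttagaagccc

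The genes were also compared with others of like base composition at the start and with others that have a close neighbor. A start was called CpG-rich where the 500 bp to each side had an observed to expected CpG ratio of at least 0.6 and at least 55% G and C. Such starts were held by 59.6% of the respiratory chain genes and 44.5% of all protein-coding genes. Among CpG-rich genes 43 of 56 respiratory chain genes had a promoter peak (76.8%, interval 63.6 to 87.0), against a background of 62.8%. Among the rest it was 23 of 38 (60.5%, interval 43.4 to 76.0) against 21.6%. By the CpG ratio alone, a split added once values were known, 59 of 78 genes at or above 0.6 had a peak (75.6%, against 63.3% of all such genes) and 7 of 16 below it (43.8%, against 14.1%). The shares were thus above those of all genes in each class, by less among CpG-rich starts than over the whole annotation.

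Many of these genes share a promoter region with a gene that runs the other way. A protein-coding neighbor on the opposite strand started within 1 kb at 35 of 94 genes (37.2%), against 11.3% of all protein-coding genes. With such a neighbor, 28 of 35 genes had a promoter peak (80.0%, interval 63.1 to 91.6), close to the background of 76.0% for all genes arranged this way. Without one, 38 of 59 had a peak (64.4%, interval 50.9 to 76.4), against 35.3% of other genes. Partners included further mitochondrial genes, such as Mrpl47 beside Ndufb5 and Timm8b beside Sdhd, and genes of the cytosolic translation machinery, such as Rps28 beside Ndufa7 and Eef1b2 beside Ndufs1. The strongest peak at 31 of the 66 genes also lay within 3 kb of a start of another protein-coding gene, and a summit there cannot be told apart between the pair. The share of all genes with a peak shared in this way was not worked out.

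Counted over all deposited peaks, complexes I to V had overlapping shares. Complex I had a promoter peak at 31 of 46 genes (67.4%, interval 52.0 to 80.5), complex II at 3 of 4 (75%, 19.4 to 99.4) and complex III at 6 of 8 (75%, 34.9 to 96.8). Complex IV had one at 12 of 18 genes (66.7%, 41.0 to 86.7) and complex V at 14 of 18 (77.8%, 52.4 to 93.6). All 5 intervals overlapped, so no difference between complexes was detectable with these numbers of genes. Counting only summits within 500 bp of a start gave 61 of 94 genes (64.9%) against a background of 31.8%, with complex IV lowest at 55.6% and complexes II and III at 75%. With only the strongest peaks, those with a −log10 q of at least 5, 34 of 94 genes remained (36.2%, interval 26.5 to 46.7) against a background of 24.3% and against 39.5% of genes with a CpG-rich start. At this threshold the respiratory chain share was below that of CpG-rich genes. Over all peaks it was above, at 70.2% (interval 59.9 to 79.2) against 62.8%. Its interval held the CpG-rich share at both settings. This sets all 94 genes, of which 59.6% have a CpG-rich start, against genes that all have one. Over all peaks, respiratory chain genes with a CpG-rich start had 76.8% (interval 63.6 to 87.0), which lies above 62.8%. At a −log10 q of at least 5 they were not counted apart, so no like comparison can be given there. Among peaks with a −log10 q of at least 5 the order was 75% for complex II, 50% for III, 39.1% for I, 27.8% for IV and 22.2% for V. Complex V went from the highest share to the lowest, just under the background of all genes. With 4 of 18 genes left in complex V, this order rests on few genes.

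**Figure D2:**
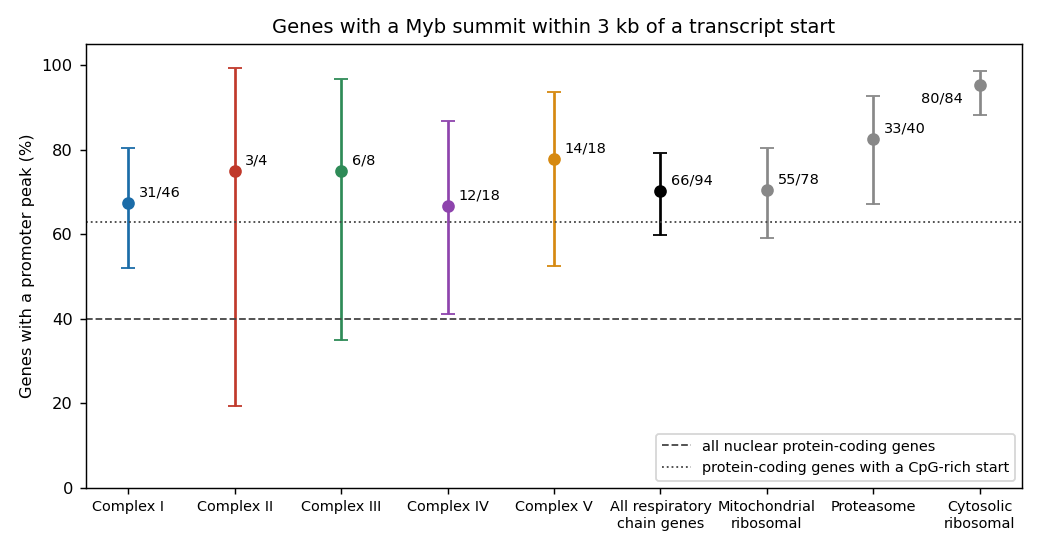
Percent of genes with a Myb summit within 3 kb of a transcript start, by complex, for all respiratory chain genes and for 3 other groups of housekeeping genes; numbers are genes with a peak over genes in the group, bars are 95% Clopper-Pearson intervals, and the lines mark all nuclear protein-coding genes (39.9%) and those with a CpG-rich start (62.8%). The 5 complexes lie between 66.7% and 77.8% with overlapping intervals.

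Other housekeeping groups place these shares. Mitochondrial ribosomal protein genes had almost the same share (55 of 78, 70.5%, interval 59.1 to 80.3). Proteasome subunit genes had 33 of 40 (82.5%, interval 67.2 to 92.7), and cytosolic ribosomal protein genes 80 of 84 (95.2%, interval 88.3 to 98.7). The cytosolic ribosomal interval lies above that of the respiratory chain genes, and the other intervals overlap it.

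The peaks at respiratory chain genes were lower than those of all protein-coding genes and close to those of other housekeeping groups. Fold enrichment is the read pileup at the summit over the local background, as the peak caller gave it. The strongest promoter peak of each gene had a median of 4.54-fold (quartiles 3.85 and 5.45, range 2.48 to 24.3), against a median of 5.25 (quartiles 4.17 and 6.84) over the 8758 protein-coding genes with a promoter peak. It reached 5-fold at 26 of the 66 genes (39.4%), against 55.3% of all genes with a peak. The median was 4.16 for mitochondrial ribosomal, 4.47 for proteasome and 5.07 for cytosolic ribosomal protein genes. The median number of reads under the summit was 21.0 at respiratory chain genes, against 22 at all genes. By complex, the medians were 4.54 for I, 5.46 for II, 5.04 for III, 4.29 for IV and 4.31 for V.

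**Figure D3:**
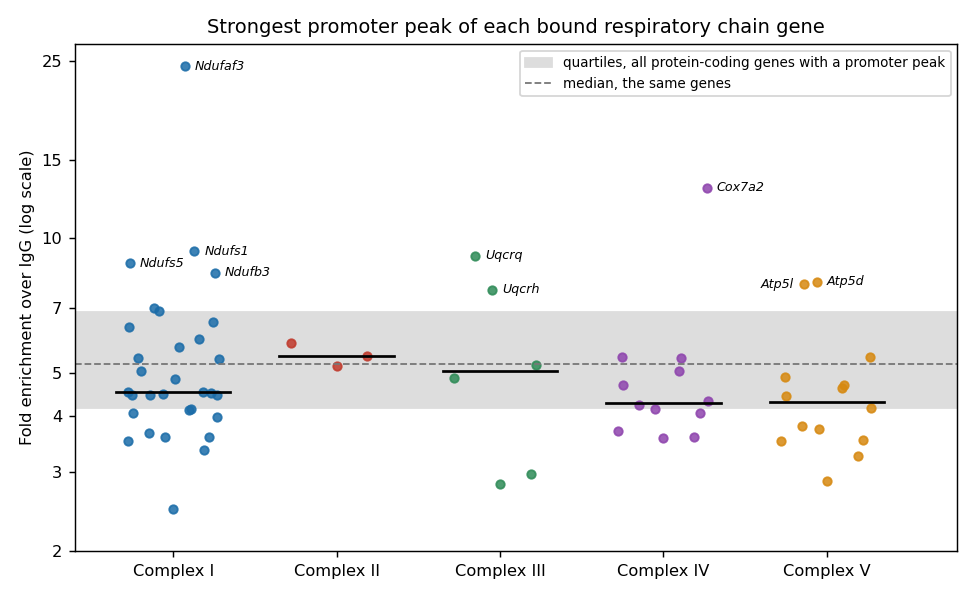
Fold enrichment (log axis) of the strongest promoter peak of each of the 66 bound respiratory chain genes by complex. It is over the local background of the peak caller, labeled as over IgG on the axis. Black bars are medians, and the gray band and dashed line are the quartiles and median of all protein-coding genes with a promoter peak. Ndufaf3 (24.3) and Cox7a2 (13) stand above all others, and the medians of complexes I, III, IV and V lie below that of all genes.

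Summits were close to the starts. The summit closest to a start lay at a median distance of 94.0 bp, against 166 bp over all protein-coding genes with a promoter peak. The 3 other housekeeping groups were about as close, at 103 bp (mitochondrial ribosomal), 110 bp (proteasome) and 89.5 bp (cytosolic ribosomal). It lay within 100 bp at 33 genes, within 250 bp at 53 and within 1 kb at 64. The strongest summit was upstream of the nearest start at 40 genes and downstream at 26. By the annotation of the gene itself, this summit was in an untranslated region at 17 genes, in coding sequence at 3, in another exon at 2, in an intron at 12 and outside the gene at 32.

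**Figure D4:**
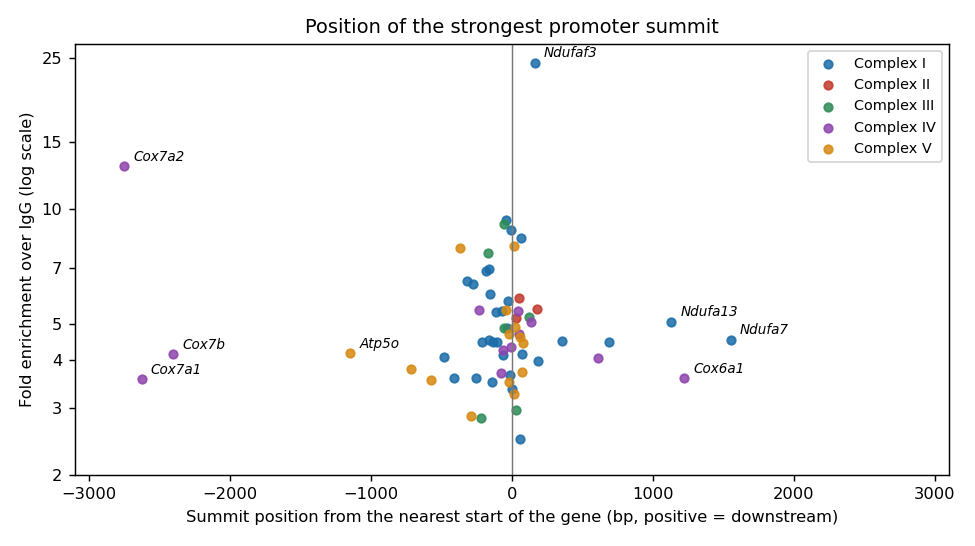
Position of the strongest promoter summit of each of the 66 bound genes against its fold enrichment (log axis), colored by complex. Position is in bp from the nearest annotated start of the gene (positive is downstream). Fold enrichment is over the local background, labeled as over IgG on the axis. Most points crowd around the start; 7 genes, named in the plot, had their strongest summit over 1000 bp away.

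Complex I takes electrons from NADH and has a catalytic core of 7 nuclear-encoded subunits, among them those that carry the flavin and the iron-sulfur clusters. All 7 had a promoter peak (interval 59.0 to 100). The strongest was at Ndufs1, the largest core subunit, at 9.37-fold with 37 reads (95% Poisson interval 26.1 to 51) and a summit 43 bp before the start, inside the first part of Eef1b2 on the other strand. Ndufs8 and Ndufs7, which hold iron-sulfur clusters, had 6.49 and 5.97. Lower values were found, with Ndufs3 at 4.51, Ndufv2 at 3.59 and Ndufv1, which binds the flavin and NADH, at 3.37. The core genes thus ran from above the upper quartile of all bound genes to below the lower quartile.

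The accessory subunits of complex I, which surround the core, had a peak less uniformly, at 19 of 30 genes (63.3%, interval 43.9 to 80.1). The highest were Ndufs5 at 8.80-fold, with 33 reads and a summit 8 bp before its start, and Ndufb3 at 8.39, with 33 reads and a summit 65 bp after it. Ndufa6 had 6.88, and Ndufab1, the mitochondrial acyl carrier protein, had 3.67. Genes without a peak were Ndufa1, Ndufa3, Ndufa8, Ndufb4, Ndufb6, Ndufb7, Ndufb8, Ndufc2, Ndufs4, Ndufs6 and Ndufv3. By symbol family, 10 of 14 Ndufa genes, 6 of 10 Ndufb genes, 6 of 8 Ndufs genes and 2 of 3 Ndufv genes had one. The interval of the accessory genes overlapped that of the core. Ndufa4, counted in complex I by its symbol although its protein is now known as a subunit of cytochrome c oxidase, had 4.14-fold.

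The assembly factors of complex I, which help build it and are not part of the finished enzyme, held both the highest and the lowest value when the strongest promoter peak of each gene was taken. Ndufaf3 had 24.3-fold at chr9:108566258-108568286, with 101 reads (interval 82.3 to 123), a −log10 q of 82.1 and a summit in an untranslated region, 163 bp after the start. The same peak lay within 3 kb of starts of Dalrd3 and Impdh2, although the start of Ndufaf3 was the nearest. A second peak of 5.30-fold lay further upstream and nearer to Dalrd3, and it had a Myb motif within 50 bp of its summit, which the strong peak did not. Ndufaf8 had the lowest value, 2.48-fold with 18 reads, and was the only gene of the 66 whose strongest peak had a q-value above 0.05 (−log10 q 0.856). Ndufaf1, Ndufaf5 and Ndufaf7 had 5.37, 4.47 and 3.52, and Ndufaf2, Ndufaf4 and Ndufaf6 had none, so 5 of 8 had a peak.

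Complex II, succinate dehydrogenase, belongs to both the chain and the citric acid cycle and is wholly nuclear-encoded. Its membrane anchors Sdhc and Sdhd had peaks of 5.85-fold with 22 reads and 5.46-fold with 21 reads. The iron-sulfur subunit Sdhb had 5.18-fold with 20 reads, and its summit, 31 bp after the start, lay in coding sequence. These 3 values differ by fewer reads than the Poisson interval of any of them, which for Sdhb was 12.2 to 30.9. Sdha, the flavoprotein that oxidizes succinate, had no promoter peak, and the nearest summit was 6652 bp from a start. Its start is CpG-rich, with a CpG ratio of 0.790, and lies 29 bp from that of Ccdc127 on the other strand.

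Complex III passes electrons from ubiquinol to cytochrome c. Uqcrq, a small subunit near cytochrome b, was highest at 9.14-fold (43 reads, interval 31.1 to 57.9), with a summit 60 bp before its start and Gdf9 on the other strand. Uqcrh, the hinge protein, had 7.67-fold with 32 reads, at a summit nearer to the start of Lrrc41. Uqcrc2 had 5.21 and Uqcr10 had 4.87. Uqcrfs1, the Rieske iron-sulfur protein and the only catalytic subunit of this complex in the list, had 2.97, and Uqcr11 was lowest at 2.82. Uqcrb and Uqcrc1 had no promoter peak. The complex therefore held 2 of the 10 highest peaks and 2 of the 4 lowest.

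Complex IV, cytochrome c oxidase, has its catalytic subunits in mitochondrial DNA, and its nuclear subunits come partly as pairs of isoforms, a widely expressed one and one known from muscle, testis, lung or other tissues. Of 11 widely expressed genes 10 had a promoter peak (90.9%, interval 58.7 to 99.8), and of 7 tissue-restricted isoforms 2 had one (28.6%, interval 3.67 to 71.0). Cox4i1 had 4.06-fold and its isoform Cox4i2 none, although each Cox4i1 peak was nearer to the start of Emc8 on the other strand. Cox6a1 had 3.59 and Cox6a2, the heart and muscle form, none. Cox8a had 4.33, while Cox8b and Cox8c had none. The pattern was the same in each of these isoform groups.

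Other groups were mixed. Cox6b1 had 4.69-fold, and the testis isoform Cox6b2 had 5.06-fold with 25 reads (interval 16.2 to 36.9), in an untranslated region 136 bp after its start. Cox7a2 had 13-fold at chr9:79761942-79763397, with 41 reads (interval 29.4 to 55.6) and a summit 2752 bp before its start, and a second peak of 5.06-fold at 55 bp after it. Its muscle isoform Cox7a1 had 3.57-fold with 16 reads, 2628 bp before its start and nowhere nearer, and Cox7a2l, which helps join complexes into supercomplexes, had none. Cox7b had 4.15, at a summit nearer to the start of Magt1, and Cox7b2 had none. Subunits without a listed isoform all had a peak, from 3.71 at Cox5b to 5.44 at Cox5a.

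The starts of the tissue-restricted isoforms were set apart from the rest by their CpG content. Counting Ndufa4l2 of complex I, 2 of 8 such genes had a promoter peak (25.0%, interval 3.19 to 65.1), against 64 of the other 86 (74.4%, interval 63.9 to 83.2), and these intervals overlap slightly, as do those within complex IV. The CpG ratio at the start was between 0.186 and 0.468 in the 8 isoform genes, with a median of 0.328. It was between 0.482 and 1.04, with a median of 0.776, in the other 85 genes left after setting aside the long Atp5o locus. These ranges do not overlap, and 14.1% of all protein-coding genes with a CpG ratio below 0.6 had a promoter peak. The part of the CpG ratio in the binding of the isoform genes was not tested.

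**Figure D5:**
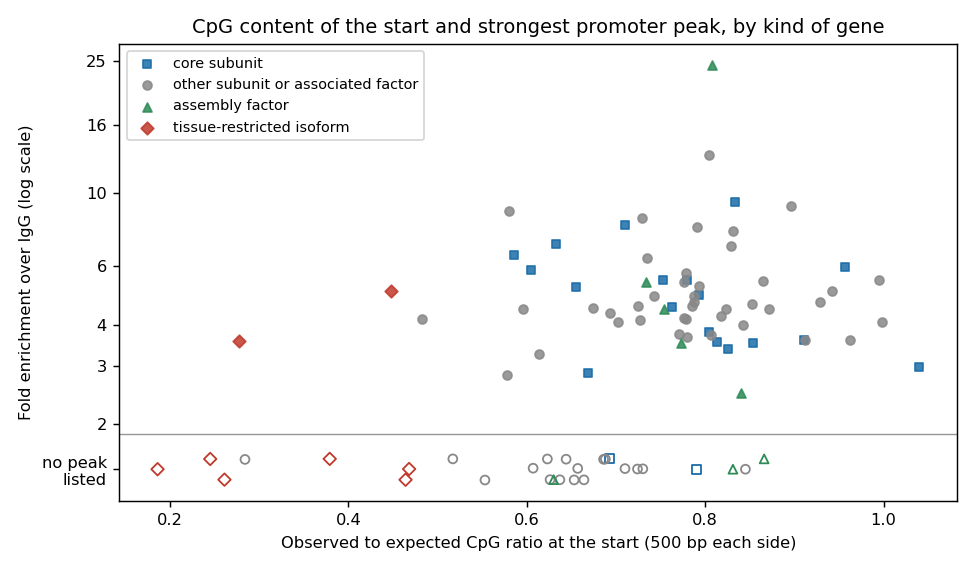
Observed to expected CpG ratio in the 500 bp to each side of the start against fold enrichment of the strongest promoter peak (log axis), for the 94 genes by kind. Fold enrichment is over the local background, labeled as over IgG on the axis. Open symbols at the bottom are genes with no promoter peak. The 8 tissue-restricted isoforms (red) lie at the left, at ratios up to 0.468, and 6 of them have no peak.

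Complex V, the ATP synthase, joins a catalytic head to a rotor in the membrane. Of 8 genes for the head, central stalk and rotor ring 7 had a promoter peak (87.5%, interval 47.3 to 99.7). Atp5d, the delta subunit of the central stalk, was highest at 8.01-fold, with 29 reads and a summit 14 bp after its start. Atp5a1 and Atp5b, whose proteins alternate in the head and carry the catalytic sites, had 4.91 and 3.80, and Atp5c1, the gamma shaft, had 3.52. Atp5e, the epsilon subunit at the foot of the shaft, had no peak, with the nearest summit 10196 bp away. These 3 lay below the 5.25-fold median of all protein-coding genes with a peak.

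Subunit c, which forms the rotor ring, is encoded by 3 nuclear genes for the same mature protein. Atp5g2 had 5.44-fold (27 reads, interval 17.8 to 39.3), Atp5g3 had 3.55 (15 reads, 8.40 to 24.7) and Atp5g1 had 2.86 (21 reads, 13 to 32.1). All had a peak, and their read intervals overlapped. Atp5g1 was the lowest of complex V.

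The stator and membrane subunits of complex V had a peak at 6 of 9 genes (66.7%, interval 29.9 to 92.5). Atp5l, the g subunit, had 7.89-fold with 50 reads (interval 37.1 to 65.9), 368 bp before its start. Atp5j, coupling factor 6, had 4.69-fold in a peak that it shares with Gabpa on the other strand, which codes for the DNA-binding subunit of GABP. The summit lay beside both an ETS word and the YY1 word shown above, and the 2 starts are annotated with a small overlap. Atp5j2, Atp5mpl and the long Atp5o locus had none, although the last of these, which is long, had 13 summits inside its body. The usual Atp5o gene had 3 promoter peaks, of 4.18, 4.15 and 3.71.

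The chain has 3 genes on chromosome X, where 15% of protein-coding genes had a promoter peak. Ndufb11 and Cox7b both had one, of 4.15-fold with 12 reads (interval 6.20 to 21.0), and Ndufa1 had none. At Ndufb11 the start of Rbm10 was nearer to the summit, and at Cox7b the summit lay 2406 bp before the start and nearer to Magt1. Neither peak was thus nearest to the chain gene. Over all 66 genes, 10 had their strongest peak nearer to a start of another gene, and these also included Ndufa11, Ndufa13, Ndufaf5, Ndufaf7, Ndufb10, Ndufb9, Uqcrh and Cox4i1.

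The 28 genes without a promoter peak had, by definition, no summit within 3 kb of a start. The distance from a start to the nearest summit had a median of 26559.5 bp and ran from 3857 bp at Atp5mpl to 633171 bp at Cox7b2. It was under 10 kb at 7 genes and under 50 kb at 21. The same distances were not worked out for other protein-coding genes without a promoter peak. Of the 28 genes 13 had a CpG-rich start. Core genes were taken as the conserved core of complex I, all of complex II, the Rieske protein of complex III and the head, central stalk and rotor ring of complex V, with none from complex IV. Cytochrome c1 (Cyc1) of complex III falls outside the symbol rule, so it was not among them, and it had no promoter peak. Of the core genes 18 of 20 had a promoter peak (90.0%, interval 68.3 to 98.8), and the exceptions were Sdha and Atp5e. The accessory subunits, without the tissue-restricted isoforms, had 40 of 57 (70.2%, interval 56.6 to 81.6), which overlaps the interval of the core genes. The background was 39.9% for all protein-coding genes and 62.8% for those with a CpG-rich start.

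Genes that work beside the chain but fall outside the symbol rule were counted too. The mobile electron carrier cytochrome c (Cycs), its testis form (Cyct) and cytochrome c1 (Cyc1), which belongs to complex III, had no promoter peak, which with 0 of 3 allows a share of up to 70.8%. Assembly factors named otherwise had 33 of 41 (80.5%, interval 65.1 to 91.2), against 39.9% of all protein-coding genes and 62.8% of those with a CpG-rich start. The highest of them was Cox20, a chaperone of a mitochondrially encoded subunit of complex IV, at 13.2-fold, followed by Cox18 at 8.52 and by Cox15, which makes heme A, and Lrpprc, which stabilizes mitochondrial messenger RNAs, both at 8.03. Sco1 and Sco2, which deliver copper to complex IV, and Cox10, which acts before Cox15, had none.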

How the data were processed

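Myb ChIP-seq was analyzed from 1 deposited peak list. Per the labels and the submitters' processing notes, libraries were sequenced single-end, and cutadapt 1.15, BWA 0.7.13, Picard and MACS2 2.1.1.20160309 were named, with build mm10. The authors deposited each peak's fold enrichment (a ratio to local background), −log10 p-value and q-value, and a whole-number score, which is the −log10 p-value multiplied by 10 without its decimals. Total depth is not given in the sources used here, and the IgG library was used only through these columns.

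Python 3.11.15 with numpy 2.4.6, pandas 2.3.3 and scipy 1.17.1 was used. Summits were assigned to GENCODE vM21 (GRCm38) genes with a start within 3 kb. Whole reads were recovered from fold enrichment and p-value at a pileup scale of 0.769. In 100% of peaks a whole number gave the −log10 p-value to within 0.002, with more than 1 possible number in 1.24%. Intervals are 95% Clopper-Pearson or exact Poisson. Scripts were tested on simulated data. Promoter sequences came from the RefSeq table of GRCm38.p6, matched through Entrez gene identifiers.

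The members, gene lists and comparisons were chosen with earlier results of these data known, and no list gives independent support. Named genes were the 10 highest, the highest and lowest of each complex, all of complex II, isoform groups of complex IV and of subunit c, genes on chromosome X, genes with peaks only beyond 1 kb and core genes without a peak. The values of 1 of these genes are not reported here. Others named stand for their class. Head-to-head neighbors started within 1 kb on the other strand, with up to 200 bp of overlap. Alternatives varied the q-value, window, transcripts, gene assignment, membership and motif; a version without the long Atp5o locus was chosen after seeing the data.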

Additional observations from a re-analysis of the deposited data

How the results depend on the processing

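Of 69 results under alternatives, 49 moved by less than their 95% interval (medians, by less than the spread between genes). With a −log10 q of at least 5, the share fell to 36.2% of respiratory chain genes, 39.1% in complex I, 27.8% in IV and 22.2% in V. At that setting complex V, with 4 of 18 genes, was just below the share of all protein-coding genes. The respiratory chain share was below that of CpG-rich genes, and its interval (26.5 to 46.7) held their share. The interval over all peaks (59.9 to 79.2) held their 62.8% too. Both comparisons set all respiratory chain genes, and not only those with a CpG-rich start, against CpG-rich genes. The share of all protein-coding genes was 38.4% with q of at most 0.05, 37.0% and 24.3% with a −log10 q of at least 2 and 5, 35.8% and 31.8% within 1 kb and 500 bp, and 38.7% from coding transcripts alone. For CpG-rich starts these were 60.7%, 58.5%, 39.5%, 58.0%, 51.5% and 61.3%. Strength as −log10 q had a median of 5.08. The Myb motif share was 9.09% within 25 bp, 33% within 100 bp and 50% with AACNG. These settings keep fewer peaks, a narrower or wider window, or a looser word by construction. No paired analysis was possible because there was 1 library of each kind. With 1 Myb library and strongest promoter peaks of 12 reads upward at these genes, a missing peak does not show absence of binding.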

Other observations

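Listed enzymes of the citric acid cycle other than succinate dehydrogenase, which is complex II and whose Sdha had no promoter peak, all had one. It was 13 of 13 genes (interval 75.3 to 100), against 39.9% of all protein-coding genes and 62.8% of those with a CpG-rich start. Values ran from 3.67-fold at Suclg2 to 7.77 at Idh3a, a catalytic subunit of NAD-dependent isocitrate dehydrogenase. Regulators known to act on nuclear respiratory genes had 14 of 18 (77.8%, interval 52.4 to 93.6), an interval that holds the 62.8% of CpG-rich genes. Gabpa, among the 14, was counted through the peak it shares with Atp5j. The highest were Yy1 at 13.7-fold, Myc at 9.79, the coactivator Pprc1 at 9.30, Sp1 at 8.59 and Esrra at 8.46. Nrf1 had 3.48 and Tfam, which packages mitochondrial DNA and activates its transcription, had 3.67. Esrrb, Esrrg, Ppargc1a and the mitochondrial RNA polymerase Polrmt had none.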
